A study of Mus musculus with 24 samples.

Results

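Kat8, which encodes the histone acetyltransferase MOF, was followed here with its 4 MYST relatives Kat5, Kat6a, Kat6b and Kat7 and with Msl1, Msl2 and Msl3, which encode subunits of the MSL complex. The 8 genes were taken by symbol from 4 tables of comparisons made by the authors. All 8 were among the 43626 genes of each table of mouse embryonic fibroblasts (MEFs), 4 were among the 1990 genes of the table of podocytes with vehicle, and 7 were among the 9578 genes of the table of podocytes with Adriamycin. Each gene that a podocyte table lists has an adjusted p under 0.05, so an unlisted gene either missed that threshold or was not tested.

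The MEFs were at passage 2 and were wild type or Mof knockout. The podocytes were MPC5 cells, a mouse podocyte line, differentiated at passage 20, carrying either a Mof knockdown or a scramble control. Both kinds of cell received vehicle (DMSO) or Adriamycin for 24 h, at 0.1 µg/ml in MEFs and 0.25 µg/ml in podocytes, which made 8 groups of 3 samples. Adriamycin is doxorubicin, a drug that traps topoisomerase on DNA and causes breaks. How the knockout and the knockdown were made, and whether the samples of a group were separate cultures, was not given in the sources used here, so the p-values measure a spread between samples that may be technical. Only values per comparison were analysed here, so the depth of a library is unknown. The error of each value is the standard error (SE) of the authors' log2 fold change, Mof-depleted over control. The direction was read from the sign of Kat8.

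MYST enzymes share a catalytic domain that moves an acetyl group from acetyl-CoA to lysines of histones and other proteins. MOF acetylates a lysine of the histone H4 tail that loosens chromatin. Within the MSL complex MOF is held by MSL1, a scaffold that also binds MSL2, a ubiquitin ligase, and MSL3, which has a chromodomain. A further complex with MOF, NSL, is not described here. KAT5 (TIP60) is the catalytic subunit of NuA4 and acts in DNA damage signalling. KAT6A (MOZ) and KAT6B (MORF) acetylate histone H3 with BRPF scaffolds. KAT7 (HBO1) works with JADE or BRPF scaffolds and in the licensing of replication origins.

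Kat8 was the only member that was lower in every comparison, but it was the depleted gene and its sign set the direction of each table. In MEFs with vehicle, 3 of 8 members were lower (Kat8, Kat6a and Msl2) and none higher, and with Adriamycin 2 (Kat8 and Kat6a) were lower and none higher. In podocytes with vehicle Kat8 was lower and 3 members were higher (Kat6b, Msl2 and Msl3). In podocytes with Adriamycin 4 were lower (Kat8, Kat6b, Msl1 and Msl3) and 3 higher (Kat5, Kat6a and Kat7). Among all tested genes in the authors' deposited tables, 19.6% were lower and 17.8% higher in MEFs with vehicle, and 16.1% and 16.6% with Adriamycin. The same shares were 5.64% and 8.70% in podocytes with vehicle and 27.9% and 27.8% in podocytes with Adriamycin. In that last comparison most genes passed the threshold, so 7 changed members of 8 is not a result about these genes.

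**Figure D1:**
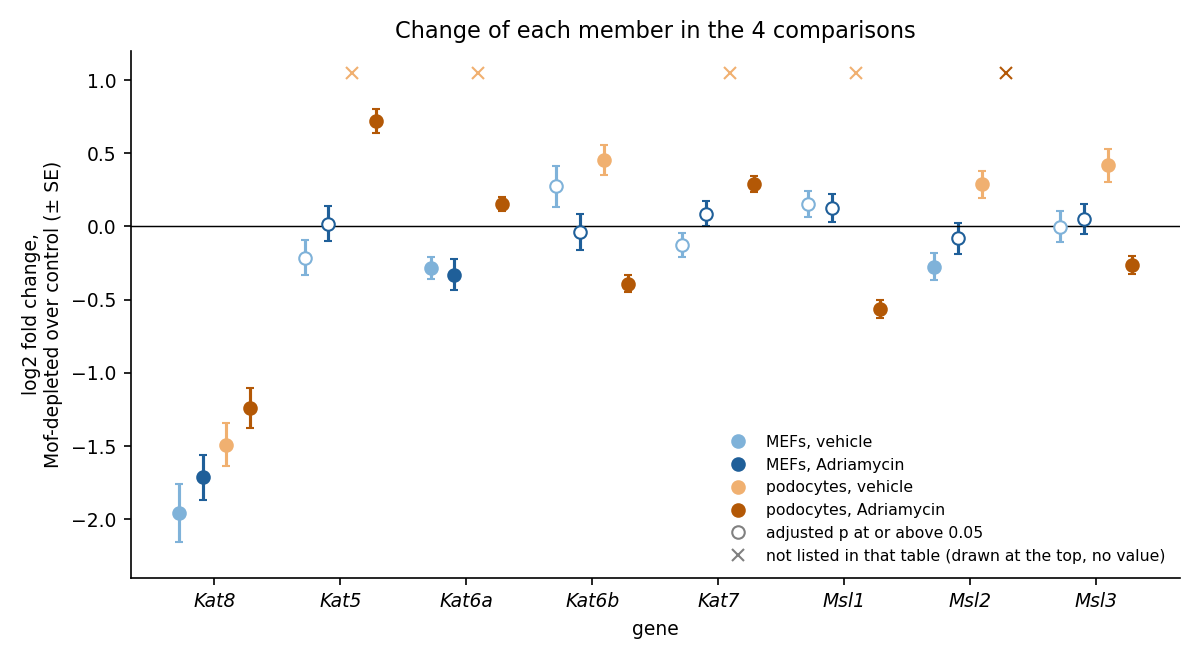
Log2 fold change of each member, Mof-depleted over control, in the 4 comparisons of the authors' deposited tables. Points are fold changes and bars are ± 1 SE, filled where the adjusted p was below 0.05; crosses at the top mark a gene that a podocyte table does not list. Kat8 lies at or below -1.24 in all 4 comparisons, and the other members lie between -0.57 and 0.72.

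The labelled cell types were checked against markers. In MEFs all 6 fibroblast markers had a mean normalized count of at least 2122, led by Col1a1, and 1 with vehicle (Col1a2) and 2 with Adriamycin (Col1a2 and Col3a1) were lower in knockout cells. Of the 6 podocyte markers, 1 was at 0 in MEFs with vehicle, namely Nphs1, the slit diaphragm protein nephrin. The same list held the actin-associated Synpo at a mean normalized count of 3348, Cd2ap at 1433, Wt1 at 105 and Podxl at 58.9. Podxl was higher in knockout MEFs with vehicle (1.37 ± 0.30, adjusted p 4.45e-05 in the authors' deposited table). With Adriamycin Podxl did not pass the threshold (0.60 ± 0.32, adjusted p 0.144), and Synpo was lower (-0.41 ± 0.17, adjusted p 0.0494) in the authors' deposited table. Of 5 leukocyte markers, 4 were higher in knockout MEFs with vehicle and none with Adriamycin, and none was at 0. Their summed derived count with vehicle was 1607 in wild type and 3676 in knockout cells, and 3281 and 4813 with Adriamycin. Lyz2 weighed most in these sums, with mean normalized counts of 1924 and 2624 against at most 272 and 512 for any other. The marker not called with vehicle was Ptprc (0.36 ± 0.30, adjusted p 0.381), which was at -0.25 ± 0.33 with Adriamycin (adjusted p 0.594) in the authors' deposited tables. The part of leukocyte markers in the MEF changes of Kat6a and Msl2 was not tested, and in bulk RNA fewer cells of a type and less RNA per cell cannot be told apart. In podocytes, Podxl (0.56 ± 0.14 and 1.06 ± 0.09) and Synpo (0.62 ± 0.17 and 1.10 ± 0.18) rose in both drug conditions in the authors' deposited tables, and the rise of Cd2ap with Adriamycin was 0.98 ± 0.05 in the authors' deposited table. The epithelial keratins Krt8 and Krt18 fell with vehicle (-0.35 ± 0.12 and -0.82 ± 0.15) and rose with Adriamycin (0.85 ± 0.06 and 0.44 ± 0.12) in the authors' deposited tables. Col1a1 (-0.68 ± 0.15) and the leukocyte marker Cd68 (-0.47 ± 0.09) were lower with Adriamycin in the authors' deposited table. The part of these markers in the podocyte changes of the members was not tested. The defining genes Nphs1 and Wt1 were in neither, so their levels are not known here.

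Kat8 (ENSMUSG00000030801, GRCm38 chromosome 7, 127912516 to 127925837, plus strand, protein coding) retained between 25.7% and 42.3% of the control level. In the authors' deposited table of MEFs with vehicle its log2 fold change was -1.96 ± 0.20, which is 25.7% of wild type (95% interval 19.7% to 33.7%; adjusted p 3.30e-21). With Adriamycin the MEF value in the authors' deposited table was -1.71 ± 0.16, or 30.5% (24.7% to 37.7%; adjusted p 2.84e-25). Gene-level counts include reads from any exon that a knockout leaves, and the part of Kat8 removed was not given in the sources used here. Its fold change also set the direction of each table, so it is no check of the labels. The fold changes of both cell types may be shrunken towards 0, as described under processing, and the percentages left rest on them.

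The estimates of Kat8 mRNA left were higher in podocytes. The authors' deposited table gives -1.49 ± 0.15 with vehicle, or 35.6% of scramble (29.2% to 43.4%; adjusted p 2.54e-21). With Adriamycin the value in the authors' deposited table was -1.24 ± 0.14, or 42.3% (35.2% to 50.9%; adjusted p 2.99e-19). Neighbours in this order of 4 did not separate: the intervals of the differences were -0.25 to 0.74 between the MEF comparisons, -0.20 to 0.64 between MEFs with Adriamycin and podocytes with vehicle, and -0.14 to 0.64 between the podocyte comparisons. The vehicle comparisons of podocytes and MEFs did not separate either, with a difference of 0.47 ± 0.25 (95% interval -0.02 to 0.95). Podocytes with Adriamycin differed from MEFs with vehicle by 0.72 ± 0.24 (95% interval 0.25 to 1.19) and from MEFs with Adriamycin by 0.47 ± 0.21 (0.07 to 0.88). Those 2 contrasts set a knockdown in 1 cell type against a knockout in another, at different doses, and these cannot be told apart.

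**Figure D2:**
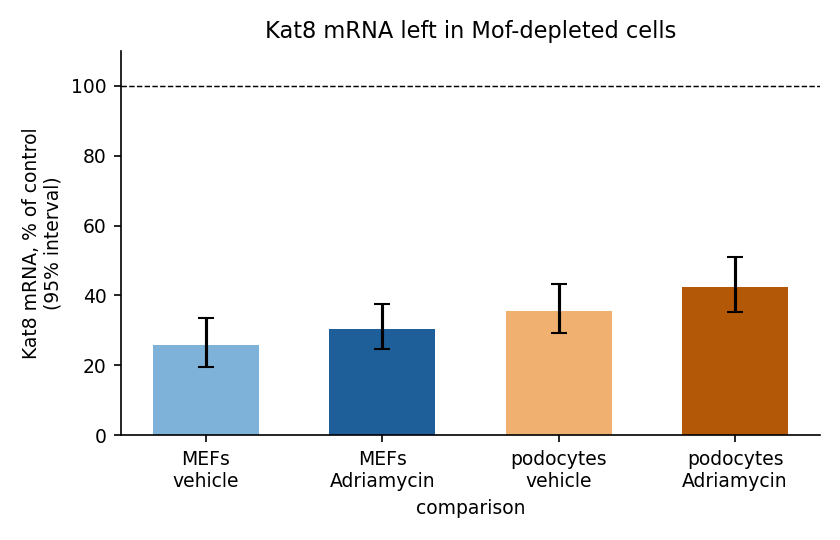
Kat8 mRNA in Mof-depleted cells as a percentage of control, computed from the authors' log2 fold changes; bars are the estimate, whiskers the 95% interval from its SE, and the dashed line marks the control. The estimates run from 25.7% in MEFs with vehicle to 42.3% in podocytes with Adriamycin, and whiskers of neighbouring bars overlap.

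The depth of the fall relative to other genes differed between tables. Among genes called lower with a mean normalized count of at least 100, Kat8 had the 4th lowest fold change of 2784 in MEFs with vehicle, of 1963 in MEFs with Adriamycin and of 733 in podocytes with vehicle. In podocytes with Adriamycin, it was at place 467 of 3929 in the authors' deposited table. Of 375 genes called in all 4 tables, 27 were lower and 57 higher in each, and Kat8 alone was below -1 in all 4.

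The genes whose 4 fold changes lay nearest to those of Kat8, by root mean square difference over the 375 genes, were Kbtbd8 (0.616), Fam57a (0.910), Mccc2 (0.995), Rttn (1.03) and Pus10 (1.04). Kbtbd8, a substrate adaptor of a ubiquitin ligase, was at -1.44 ± 0.33 (vehicle) and -1.05 ± 0.27 (Adriamycin) in MEFs and, in podocytes, at -0.65 ± 0.23 and -0.93 ± 0.12 in the authors' deposited tables. Mccc2, a subunit of an enzyme of leucine breakdown, was at -0.64 ± 0.17 and -0.92 ± 0.17 in MEFs and -0.34 ± 0.12 and -0.71 ± 0.12 in podocytes in the authors' deposited tables. Rttn, a centriole protein, fell in 3 tables and rose in podocytes with Adriamycin (0.30 ± 0.09 in the authors' deposited table). The likeness covers 4 comparisons and is a description.

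In wild-type MEFs with vehicle the levels of the 8 genes spanned a wide range. Group levels were derived from the mean count and fold change of each gene in the authors' deposited tables, per kb of exon and per 1000000 summed mean counts, and carry no error of their own. On this scale of level per length, Msl1 was at 19.1, Kat7 at 16.2, Msl3 at 14.7, Kat6a at 11.0, Msl2 at 7.98, Kat5 at 6.80, Kat8 at 4.18 and Kat6b at 1.50 in wild-type MEFs with vehicle. Kat8 was thus the second lowest of the 8 on this scale before its depletion. By derived mean normalized count it was the lowest, at 255 against 504 for Kat5 and 534 for Kat6b. The exon length takes in all annotated exons of a gene, 16826 bases for Kat6b and 2891 for Kat8. On the scale per length, knockout MEFs with vehicle had a Kat8 level of 1.07, below that of Kat6b at 1.82. In MEFs with Adriamycin the Kat8 level was 5.40 in wild type and 1.65 in knockout cells.

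**Figure D3:**
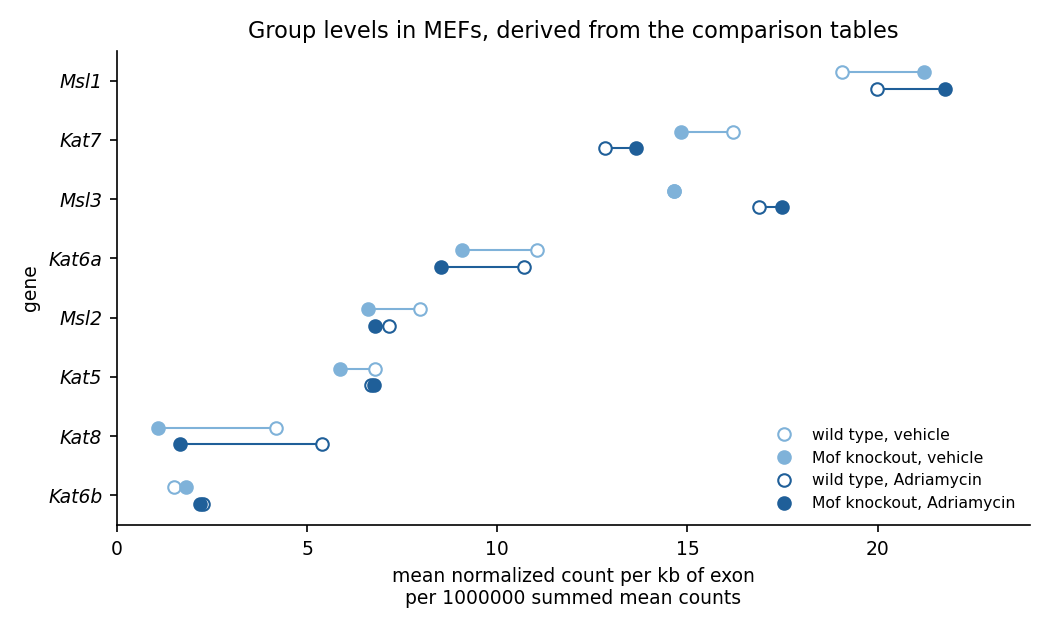
Derived group levels of each member in MEFs: mean normalized count per kb of exon per 1000000 summed mean counts, without error bars because the tables give no value per sample. Open points are wild type and filled points Mof knockout, and each line joins the 2 groups of 1 drug condition. The line of Kat8 runs from 4.18 to 1.07 with vehicle, while Msl3 with vehicle shows 14.7 and 14.6 as 1 overlapping point.

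Kat6a was the MYST relative that fell in knockout MEFs under both drug conditions. It lies on chromosome 8, 22859535 to 22943259, and in the authors' deposited tables its log2 fold change was -0.28 ± 0.08 with vehicle (adjusted p 0.00110) and -0.33 ± 0.11 with Adriamycin (adjusted p 0.0109). These changes leave 82.1% and 79.6% of the wild-type level. The derived mean normalized count of Kat6a was 2144 in wild type and 1761 in knockout MEFs with vehicle, and 2078 and 1654 with Adriamycin. In podocytes with Adriamycin Kat6a instead rose, by 0.15 ± 0.05 (adjusted p 0.00476 in the authors' deposited table). It was not listed in podocytes with vehicle. At a threshold of 0.01 in place of 0.05 the call in MEFs with Adriamycin ended, which left Kat8 as the 1 called member there.

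The other 3 MYST relatives did not pass the threshold in MEFs. Kat5 (chromosome 19, 5603014 to 5610237) was at -0.21 ± 0.12 with vehicle (95% interval -0.45 to 0.02; adjusted p 0.149) and at 0.02 ± 0.12 with Adriamycin (-0.21 to 0.25; adjusted p 0.918) in the authors' deposited tables. Kat7 (chromosome 11, 95274259 to 95310246) was at -0.13 ± 0.08 (-0.29 to 0.03; adjusted p 0.215) and 0.09 ± 0.09 (-0.08 to 0.26; adjusted p 0.462) in the authors' deposited tables. Kat6b (chromosome 14, 21481434 to 21672478) was at 0.27 ± 0.14 (-0.0010 to 0.55; adjusted p 0.113) and -0.04 ± 0.12 (-0.28 to 0.20; adjusted p 0.838) in the authors' deposited tables. The interval of Kat6b with vehicle runs up to 146% of the wild-type level. For Kat5 with vehicle the upper bound was 101% of the wild-type level.

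Of the MSL subunits, only Msl2 passed the threshold in MEFs, and only with vehicle. Msl2 (chromosome 9, 101074101 to 101104800) was at -0.27 ± 0.09 with vehicle in the authors' deposited table (adjusted p 0.00859), or 82.7% of wild type. With Adriamycin it was at -0.08 ± 0.11 (95% interval -0.29 to 0.13; adjusted p 0.598 in the authors' deposited table). The scaffold gene Msl1 (chromosome 11, 98795516 to 98807859) was at 0.15 ± 0.09 with vehicle (adjusted p 0.167) and 0.12 ± 0.10 with Adriamycin (adjusted p 0.329) in the authors' deposited tables. Msl3 (chromosome X, 168654117 to 168673898) was at -0.0012 ± 0.11 with vehicle (-0.21 to 0.21; adjusted p 0.995) and 0.05 ± 0.10 with Adriamycin (-0.15 to 0.25; adjusted p 0.737) in the authors' deposited tables. The 95% interval of Msl3 with vehicle runs from 86.5% to 115% of wild type.

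To ask whether Adriamycin altered the change with Mof loss in MEFs, the fold changes with Adriamycin and with vehicle were subtracted for all 13973 genes tested in both tables, which share no sample. The difference passed an adjusted p of 0.05 for 7.09% of these genes and for 0 of the 8 members, by a z test with Benjamini-Hochberg adjustment. None of the members had an unadjusted p under 0.05. The smallest was 0.0678 for Kat7 (difference 0.22 ± 0.12, 95% interval -0.02 to 0.45; adjusted p 0.294). The next was 0.0932 for Kat6b (-0.31 ± 0.19, interval -0.68 to 0.05; adjusted p 0.351). For Msl2, called with vehicle and not with Adriamycin, the difference was 0.19 ± 0.14 (interval -0.08 to 0.47; adjusted p 0.477), so its changes are not shown to differ. For Kat8 it was 0.24 ± 0.25 (interval -0.25 to 0.74; adjusted p 0.663).

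In podocytes with vehicle, the 3 members that rose were Kat6b, Msl3 and Msl2. Kat6b rose by 0.45 ± 0.10 in the authors' deposited table (adjusted p 2.60e-04), which is 137% of scramble. Msl3 rose by 0.42 ± 0.11 (134%; adjusted p 0.00431 in the authors' deposited table). The rise of Msl2 was 0.29 ± 0.09 (122%; adjusted p 0.0196 in the authors' deposited table). The derived mean normalized counts in scramble and knockdown cells with vehicle were 1426 and 1952 for Kat6b, 850 and 1135 for Msl3, and 825 and 1007 for Msl2. Kat5, Kat6a, Kat7 and Msl1 are not in that table. The smallest absolute Wald statistic listed there was 2.69, and listed genes with a mean count of 500 to 3000 had a median SE of 0.113. A gene of such an SE would need a change of 0.30 to be listed, and one of a smaller SE less, as for Msl2. The SEs of those 4 unlisted genes in that table are unknown. Msl2 had the opposite sign in podocytes and MEFs with vehicle (0.29 and -0.27), and that difference between a knockdown and a knockout in different cells was not tested.

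In podocytes with Adriamycin, Kat5 and Msl1 moved furthest after Kat8. Kat5 rose by 0.72 ± 0.08 (adjusted p 7.85e-17 in the authors' deposited table), or 165% of scramble. Msl1 fell by 0.57 on the log2 scale (SE 0.06; adjusted p 7.64e-19 in the authors' deposited table), or 67.5% of scramble. Kat7 rose by 0.29 ± 0.05 (adjusted p 2.55e-07 in the authors' deposited table). Kat6b fell to 76.3% of scramble (-0.39 ± 0.06; adjusted p 2.47e-10 in the authors' deposited table). Msl3 fell to 83.4% (-0.26 ± 0.06; adjusted p 9.14e-05 in the authors' deposited table). Msl2 is not listed with Adriamycin. There the smallest absolute Wald statistic was 2.20 and the matching median SE was 0.0687, so a change of 0.15 would have been listed at that SE.

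Genes that overlap Kat5 and Msl1 moved the other way in the same comparison. Rnaseh2c, a subunit of ribonuclease H2, shares 4006 bases of its span with Kat5 on the opposite strand and was at -1.22 ± 0.09 in podocytes with Adriamycin (adjusted p 2.60e-38 in the authors' deposited table). Casc3, a core protein of the exon junction complex, shares 2955 bases of its span with Msl1 on the same strand and was at 0.69 ± 0.06 (adjusted p 4.05e-34 in the authors' deposited table). Whether the counting used strand, and how reads in shared bases were assigned, was not given in the sources used here, so a part of these reads cannot be told apart. Prss8 shares 122 bases with Kat8 on the opposite strand and had a mean normalized count of 0.377 in MEFs with vehicle and 0.340 with Adriamycin. Gm12359 and Gm37553, which overlap Msl1 and Msl2, had mean normalized counts of at most 10.6 in MEFs, and Gm45555, within the span of Kat6a, is in none of the 4 tables.

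Kat6b and Msl3 both rose with vehicle and fell with Adriamycin in podocytes. Subtracting the vehicle value from the Adriamycin value gave -0.84 ± 0.12 for Kat6b (95% interval -1.08 to -0.61) and -0.68 ± 0.13 for Msl3 (-0.94 to -0.42). For Kat8, the third member in both tables, it was 0.25 ± 0.20 (-0.14 to 0.64). Such a change of direction was common: of 1518 genes in both podocyte tables, 521 (34.3%) had opposite signs, and of the 895 that rose with vehicle 33.5% fell with Adriamycin. By the z test, adjusted over these 1518 genes, 63.4% differed, so the difference of Kat6b (adjusted p 4.79e-12) and Msl3 (adjusted p 6.00e-07) is not particular to them. Genes called with opposite signs in both podocyte tables could hardly fail this test, so these adjusted p-values add no support. In MEFs only 79 of 2923 genes called in both tables (2.70%) had opposite signs.

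**Figure D4:**
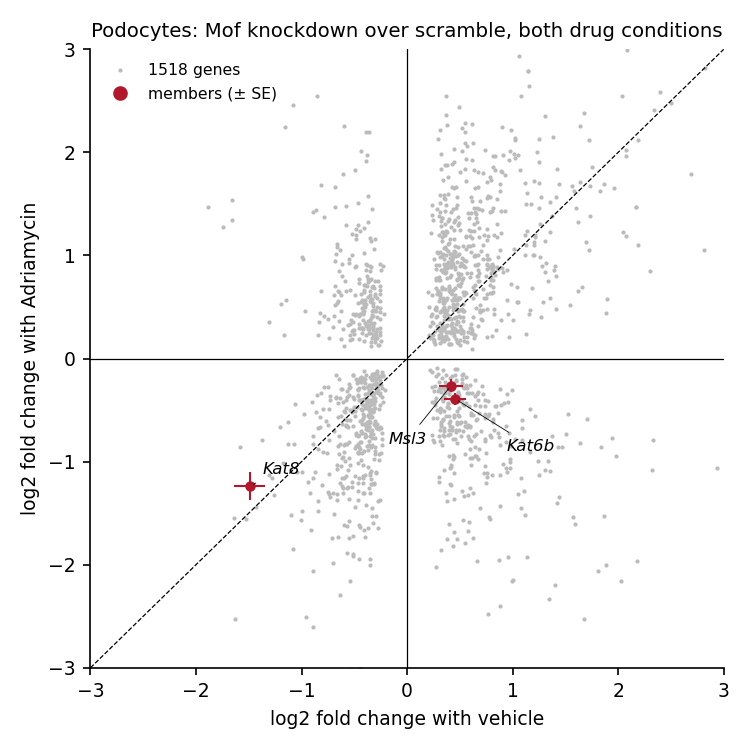
Log2 fold change of Mof knockdown over scramble in podocytes with vehicle (x) and Adriamycin (y) for the 1518 genes in both tables, with 14 genes beyond the axes; red points are members with ± 1 SE and the dashed line marks equal change. Empty bands along the axes arise because only genes past the threshold are listed. Kat8 lies lower left near the dashed line, and Kat6b (0.45 and -0.39) and Msl3 (0.42 and -0.26) lie lower right among many other genes.

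The derived group levels of Kat6b and Msl3 are given here for both drug conditions. For Kat6b the mean normalized count was 1426 in scramble and 1952 in knockdown podocytes with vehicle, against 2271 and 1733 with Adriamycin. For Msl3 it was 850 and 1135 with vehicle and 1386 and 1156 with Adriamycin. For both genes the knockdown groups lay closer together than the scramble groups did. The authors normalized each table on its own and the levels have no error, so no test was made between the levels of separate tables. Which of the groups moved was therefore not tested.

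The promoters of Kat8, Kat6b and Msl3 are shown because Kat8 is the depleted gene and the other two moved together in podocytes. Each stretch is the 250 bases before a RefSeq transcript start (GRCm38.p6, the first listed where a gene has several), 5′ to 3′ on the gene's strand, with capitals marking the GC box (GGGCGG) and the CCAAT box (CCAAT) on either strand. The starts used for Kat6b and Msl3 lie inside the annotated spans of these genes, downstream of their first bases. The Kat8 stretch ends on the first annotated base of Kat8. The stretch counted below for Kat5, not printed, also reaches into the annotated span of Kat5.
Kat8, chr7:127912267-127912516, plus strand: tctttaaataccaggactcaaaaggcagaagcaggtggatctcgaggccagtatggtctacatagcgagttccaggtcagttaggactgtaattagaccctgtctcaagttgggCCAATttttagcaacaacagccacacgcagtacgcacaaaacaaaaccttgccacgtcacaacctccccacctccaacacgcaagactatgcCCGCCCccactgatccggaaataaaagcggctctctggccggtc
Kat6b, chr14:21499520-21499769, plus strand: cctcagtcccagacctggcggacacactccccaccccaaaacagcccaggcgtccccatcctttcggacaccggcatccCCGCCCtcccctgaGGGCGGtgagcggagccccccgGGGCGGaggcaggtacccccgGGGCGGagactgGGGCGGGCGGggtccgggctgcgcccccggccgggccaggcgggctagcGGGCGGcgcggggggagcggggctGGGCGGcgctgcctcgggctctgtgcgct
Msl3, chrX:168673873-168674122, minus strand: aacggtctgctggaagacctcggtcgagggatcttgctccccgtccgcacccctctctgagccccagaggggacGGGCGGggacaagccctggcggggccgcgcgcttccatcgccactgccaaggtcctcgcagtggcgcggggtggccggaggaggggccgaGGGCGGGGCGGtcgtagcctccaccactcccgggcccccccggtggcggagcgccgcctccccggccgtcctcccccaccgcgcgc

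Of the 8 members, 7 were matched to a RefSeq promoter (not Kat6a). A GC box was in 5 of these 7 (Kat8, Kat6b, Msl1, Msl2 and Msl3), against 32.9% of 27025 promoters of the same length. Counting overlapping matches, Kat6b held 8, Msl1 4, Msl3 3, Msl2 2 and Kat8 1. A CCAAT box was in 3 (Kat8, Kat5 and Kat7), against 34.5%, and an E-box (CACGTG) in Kat5 only, against 6.05%. None of the 7 held TATAAA, which 12.97% of promoters hold, the ETS core CCGGAAG (7.05%) or an NRF1-like motif (3.86%), all searched on both strands. The number of CpG in the 250 bases ran from 8 in Kat7 and 10 in Kat8 to 27 in Kat6b and 30 in Msl3, and the median over all promoters was 6. A match describes letters in this window and no binding was measured.

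The enzymes act with partner proteins, and 26 genes for these were followed: 17 of NuA4/TIP60, 9 that scaffold or read for MOZ, MORF and HBO1 (Meaf6 counts in both) and the MSL-associated helicase gene Dhx9. In MEFs with vehicle 10 of the 26 were lower and 3 higher. Their median log2 fold change was -0.14, against 0.01 over all tested genes and -0.05 over genes with a mean normalized count of at least 100. With Adriamycin 5 were lower and 1 higher, with a median of -0.07 against -0.02 over either set. The shares of all tested genes called in these tables were 19.6% lower and 17.8% higher with vehicle, and 16.1% and 16.6% with Adriamycin. In podocytes with vehicle 2 of the 26 were lower and 3 higher, against 5.64% and 8.70% of all tested genes. With Adriamycin 6 were lower and 16 higher, against 27.9% and 27.8%, from -1.29 (Jade3) to 1.52 (Morf4l2) in the authors' deposited table. The podocyte tables give no median over all tested genes, since only called genes are listed. Ep400, Epc2 and Mrgbp passed the threshold in no table.

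Partners called in 3 tables each were Dmap1, Epc1, Ruvbl2, Brpf3 and Jade2. Dmap1, a NuA4 subunit, fell in MEFs with vehicle (-0.71 ± 0.14), in MEFs with Adriamycin (-0.44 ± 0.12) and in podocytes with Adriamycin (-0.45 ± 0.08) in the authors' deposited tables. Epc1, the NuA4 scaffold that binds KAT5, rose in MEFs with vehicle (0.36 ± 0.10), and in podocytes with both vehicle (0.28 ± 0.09) and Adriamycin (0.32 ± 0.08) in the authors' deposited tables. The scaffold gene Brpf3 rose in the same 3 comparisons (0.24 ± 0.09, 0.42 ± 0.11 and 0.90 ± 0.07 in the authors' deposited tables). Ruvbl2, a AAA+ ATPase of NuA4 and other complexes, fell in those 3 (-0.38 ± 0.10, -0.31 ± 0.10 and -0.15 ± 0.06 in the authors' deposited tables). Jade2 (older symbol Phf15), a scaffold of HBO1, fell in MEFs with vehicle (-0.84 ± 0.19) and Adriamycin (-0.61 ± 0.23) and rose in podocytes with Adriamycin (0.71 ± 0.17) in the authors' deposited tables.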

How the data were processed

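RNA from MEFs and MPC5 podocytes was sequenced as poly(A) libraries, per the labels' protocols. The submitters' processing notes name TopHat2 2.0.13, featureCounts 1.4.5-p1, DESeq2 1.4.1 and GRCm38. The signal in each deposited table is the authors' mean count after division by size factors. The log2 fold change and its SE are the authors' from DESeq2, and the score is the authors' Wald statistic. The p-value and Benjamini-Hochberg adjusted p-value are as deposited. That DESeq2 version shrinks fold changes by default, and whether the authors kept this was not given in the sources used here. In MEFs the largest SE was 0.71.

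A gene was called at an adjusted p below 0.05. The number of genes tested in podocytes, 13876 and 17184, was recovered from p, rank and adjusted p. Group levels assume 3 samples a group: control = 2 × mean / (1 + fold change). Exon lengths and coordinates are from GENCODE M21 (GRCm38). The difference test was tested on simulated data, with normal noise drawn from the same MEF SEs that the test uses. That is no check of those SEs, and the podocyte tables were not simulated. Python 3.11.15, pandas 2.3.3 and scipy 1.17.1 were used. Named genes were the 8 members, the 5 most like Kat8, genes overlapping a member and partners called in at least 3 tables. Other thresholds, adjustments and centring were tried. The members and lists were chosen with earlier results of these data known.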

Additional observations from a re-analysis of the deposited data

Results flagged for a closer look

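In podocytes the change of 2 members differed between drug conditions. The Adriamycin value minus the vehicle value, on the log2 scale, was -0.84 ± 0.12 for Kat6b and -0.68 ± 0.13 for Msl3. Both rose with vehicle and fell with Adriamycin in the authors' deposited tables. Among the 1518 genes listed in both of these, 63.4% differed by the same test, which was chosen after seeing the data and covers only genes that had passed the threshold in both tables.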

How the results depend on the processing

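Leaving out single samples could not be run, since the deposited tables hold no value per sample. No paired analysis was possible because the tables give no value per replicate number. Other thresholds (0.01 and 0.1), adjustment over every gene with a p or over genes averaging 10 or more counts, and fold changes less their median over genes averaging 100 or more (-0.05 with vehicle and -0.02 with Adriamycin) were tried in MEFs. In podocytes the threshold of 0.01 alone could be tried. Among the counts of called members, the Kat8 changes and the count of members that differed between drug conditions in MEFs, 22 of 23 recomputed values kept their direction and their side of the threshold, or stayed within 1.5 times for a count. The exception was the count in MEFs with Adriamycin, which went from 2 to 1 at a threshold of 0.01, where Kat6a (adjusted p 0.0109) was lost. Msl2 in podocytes with vehicle (adjusted p 0.0196) was lost at 0.01 too. That took the count there from 4 to 3, which still fell within 1.5 times. Some of these values could hardly fail: the Kat8 values at 0.01 repeat the reported ones, and a threshold of 0.1 cannot remove a called member. After centring, the adjusted p of Msl2 in MEFs with vehicle was 0.0323 (0.00784 to 0.0323 over its alternatives) and that of Kat6a 0.00727. No member's change differed between drug conditions in MEFs under any of the 5 alternatives.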

Other observations

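Msl3l2, a gene named for its likeness to Msl3 (chromosome 10, 56106917 to 56116880), was not among the 8 members and was looked at after its values were seen. It was lower in knockout MEFs with vehicle (-0.88 ± 0.23, adjusted p 6.80e-04) and with Adriamycin (-0.71 ± 0.24, adjusted p 0.0139) in the authors' deposited tables, at mean normalized counts of 80.7 and 86.1. Msl3 itself did not pass the threshold in those tables. Reads that fit both genes cannot be told apart here. The pseudogenes Kat6b-ps1 and Kat6b-ps2 had a mean normalized count of 0 in both MEF tables.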
